A study of Mus musculus with 8 samples.

Results

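Conventional CD4 T cells, the helper lineage of T lymphocytes, were taken here as the brain cells that carried UMIs of the T cell receptor complex and of the coreceptor Cd4 but none of 5 genes that mark other lymphocytes. A UMI is a counted RNA molecule. A member had at least 2 of Cd3e, Cd3d and Cd3g detected and at least 1 UMI of Cd4, with 0 UMIs of Cd8a, Cd8b1, Trdc, Foxp3 and Cd79a. The gate took 1340 of 46314 cells that carried 1 hashtag, which was 2.89% of them. The cells were CD45.2+ immune cells sorted from the brain parenchyma of perfused mice of 2 genotypes, WT (C57BL/6J) and APPNL-G-F, a knock-in of mutated humanised amyloid precursor protein that is called App below. Mice of each genotype were controls on water, had acute colitis from 2% dextran sulfate sodium (DSS) in the drinking water, had chronic colitis from 3 DSS cycles of 5 days, or had food allergy to ovalbumin. The labels gave an age of 16 weeks and the methods 3 months. Each of the 8 conditions was 1 library, so library and condition cannot be told apart, and each library held up to 4 hashtags, antibody barcodes that mark cells before pooling. The methods state that samples were stained with hashtags, but not which hashtag was which animal. In App chronic colitis the hashtag groups with cells outnumber the animals stated for that condition, and in App acute colitis they are fewer, so hashtag groups may share an animal and p-values over them may be too small. P-values therefore measure the spread between hashtag groups, which may be technical, and n counts hashtag groups and not animals. The comparison with regulatory T cells is the exception, since it used library sums and its p-values measure the spread between libraries.

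Helper T cells recognise peptide on MHC class II through the CD3 receptor complex and Cd4, and act through cytokines and through surface ligands such as Cd40lg, which activates B cells and macrophages. Cells that have not met antigen recirculate through lymphoid organs with the homing genes Ccr7 and S1pr1. Effector and memory cells enter tissue, and some stay there with retention genes such as Cxcr6, Itga1 and Rgs1. In the brain such cells lie mostly at the borders and are rare in the healthy parenchyma.

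The libraries held 4891 to 7201 cells each after filtering on depth and mitochondrial content, and 65 to 240 members. Members made up 1.22% of cells in WT chronic colitis at the lowest and 4.18% in App chronic colitis at the highest. The median member had 2712.5 UMIs and 1288 genes. Among members alone, 2 barcodes occurred in 2 or more libraries. Over all cells with 1 hashtag, 1278 of 45004 barcodes did so.

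The gate was narrow at the Cd4 end. Cd4 was read as 1 UMI in 856 members, as 2 in 312 and as 3 or more in 172. Just outside were 3504 T cells with 0 UMIs of Cd4, whose median of 2805.5 UMIs was close to that of the members, and 77 cells with Cd4 but only 1 CD3 gene. Another 127 cells with Cd4 carried Cd8 UMIs and 150 carried Foxp3. Regulatory T cells were kept out only by 0 UMIs of Foxp3, so those whose Foxp3 RNA was not read count as members. Ikzf2 and Ctla4, which were higher in regulatory T cells (below), were found in 212 and 296 members. How many members were regulatory T cells was not tested. All 3 CD3 genes were detected in 1027 members, and Cd4 stood at 441 CPM, its UMI count scaled to the total of gene UMIs, over their pooled RNA. The members were chosen by these UMI counts of Cd4, the CD3 genes and the 5 absent genes, so these values are a description. Among genes that the gate did not use, Lat and Lck, which relay the receptor signal, stood at 781 and 555 CPM. Cd5, a brake on receptor signalling, had a median of 305 CPM over 25 hashtag groups (148 to 545), and the costimulatory receptor Cd28 had a median of 258 CPM (163 to 346). After each cell was thinned to 1000 UMIs, Cd5 was found in 26.9% of members and 0.316% of B cells, and Cd28 in 24.8% and 0.101%. Both markers, which the gate did not use, were thus found in the members and hardly in B cells.

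A minority of members also carried RNA of other lineages. At least 10 UMIs of MHC class II genes, 10 of macrophage genes, 20 of neutrophil genes or 5 of B cell genes were present in 104 members, 7.76% of the total. They had a median of 9407 UMIs against 2615.5 in the other 1236. Cd74, the invariant chain of MHC class II, reached 3414 CPM over all members while only 13.7% of members had any UMI of it. The share of such members ran from 0% in 3 hashtag groups of the fits below to 33.3% in WT food allergy hashtag 5. The gene comparisons of conditions and that with CD8 T cells were therefore also run without these 104 cells. Results that changed are given with both values. The comparison with regulatory T cells was not run in that way.

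Hashtag groups were split by their level of immediate-early genes. These genes, among them the AP-1 subunits Fos, Fosb, Junb and Jun and the phosphatase Dusp1, are transcribed within minutes of a stimulus, which includes handling of tissue. The sum of 10 of them in T cells that were not members ran from 770 to 6622 CPM over hashtag groups. The groups were cut at the widest gap, as a ratio, between neighbouring values. The gap was chosen from these values, so its being empty follows from the rule and is no test of a separation. The cut left 14 groups at or below 2096 CPM, called the low set. The other 16, at or above 3152 CPM, are called the high set. In members, the summed level was 554 to 2216 CPM in the 10 low groups with at least 20 members (median 1067) and 3459 to 8119 CPM in the 15 high groups (median 5126), so the sets did not overlap. Pooled over members, Junb was at 298 CPM in the low and 1782 CPM in the high set. Dusp1 was at 74.0 and 750 CPM, and Fos at 86.6 and 679 CPM. Btg2, an antiproliferative gene, was at 294 and 752 CPM. Both sets occurred in the WT and App controls and in most conditions, but WT acute colitis and WT food allergy entered the fits with high groups only. All fits of conditions held a term for the set.

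**Figure D1:**
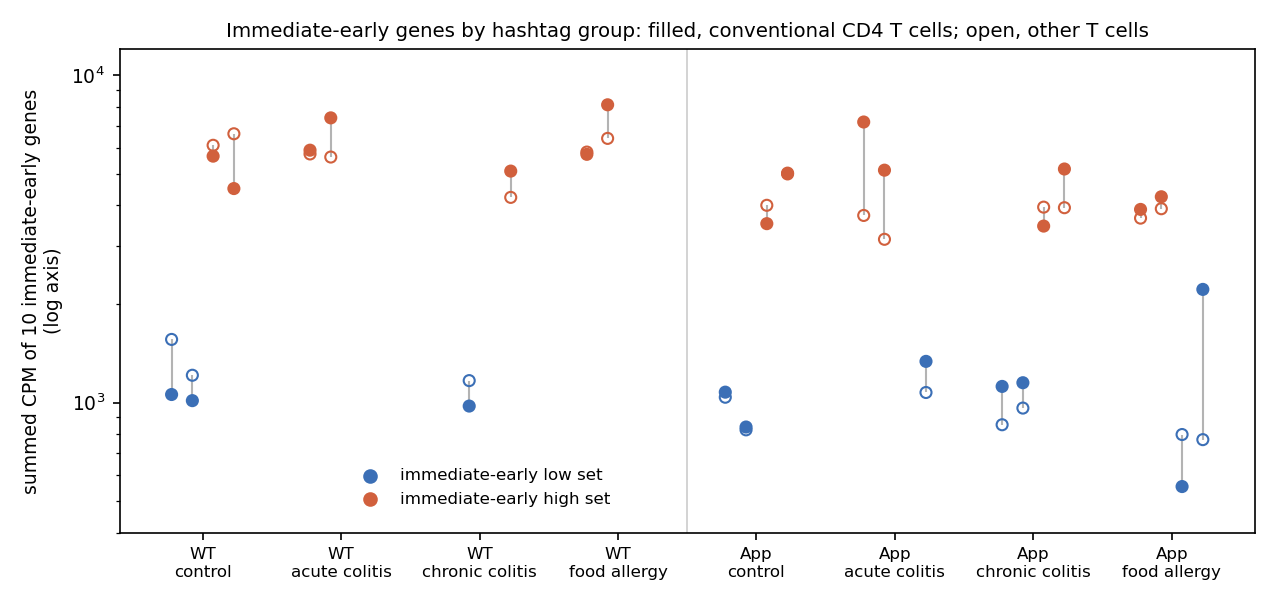
Summed CPM of 10 immediate-early genes on a log axis for the 25 hashtag groups with at least 20 members, by condition (App stands for APPNL-G-F). Filled points are conventional CD4 T cells and open points the other T cells of the same hashtag group, joined by a line, with the low set in blue and the high set in orange. Members of the high groups sit between 3459 and 8119 CPM, above all low groups.

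Promoters of these genes share a short motif. In the RefSeq promoter table (GRCm38.p6, 250 bases before to 50 after the start), 8 of the 10 genes had an entry, and the cAMP response half-site TGACG was present on either strand in 6 of them, Btg2, Dusp1, Fos, Fosb, Junb and Nr4a1. It was present in 17.8% of all 32851 promoters. The full palindrome TGACGTCA, which contains the half-site on both strands, was present in the promoters of Btg2 and Dusp1 and in 1.55% of all promoters. The CArG box of serum response factor was found in Zfp36 only, against 1.47% of all promoters. A match describes letters and no binding was measured. The 150 bases upstream of the start are shown for 3 genes that differ between the sets, with each TGACG, or CGTCA where it lies on the other strand, in capitals. Fos lies on the plus strand (chr12:85473740-85473889), Nr4a1, an orphan receptor induced by T cell receptor signals, on the plus strand (chr15:101266696-101266845) and Dusp1 on the minus strand (chr17:26508473-26508622).
Fos: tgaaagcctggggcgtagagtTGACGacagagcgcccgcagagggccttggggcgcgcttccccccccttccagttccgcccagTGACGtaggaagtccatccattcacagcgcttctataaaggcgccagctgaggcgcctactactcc
Nr4a1: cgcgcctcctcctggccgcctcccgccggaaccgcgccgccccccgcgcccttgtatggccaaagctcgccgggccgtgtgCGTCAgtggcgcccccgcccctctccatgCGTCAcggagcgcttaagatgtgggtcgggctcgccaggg
Dusp1: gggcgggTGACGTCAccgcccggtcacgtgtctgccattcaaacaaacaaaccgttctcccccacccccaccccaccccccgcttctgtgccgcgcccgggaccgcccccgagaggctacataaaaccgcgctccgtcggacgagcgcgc
The half-sites of Fos and Nr4a1 stand alone, whereas that of Dusp1 is part of the full palindrome. In members, Fos had a median of 38.2 CPM over the low groups (14.4 to 459) and 564 CPM over the high groups (181 to 1142), so single groups overlapped. Dusp1 did not overlap, with 0 to 159 CPM against 415 to 1103 CPM. Nr4a1 stood at 0 to 47.9 CPM against 36.2 to 247 CPM.

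Areg differed with the same division, and so did RNA of other lineages. Of the 104 members that carried such RNA, 88 were in the high and 16 in the low set. The summed level of 10 B cell genes had a median of 239 CPM over the low groups (174 to 4562) and 6528 CPM over the high groups (164 to 20984). That of 11 monocyte and macrophage genes was 869 CPM (402 to 2185) and 4965 CPM (740 to 14176). Their part in the differences between the sets was not tested. Areg encodes amphiregulin, an epidermal growth factor receptor ligand made by tissue regulatory T cells and ILC2, and lies at chr5:91139599-91148432 on the plus strand (GRCm38). It was detected in 0 of 646 members of the low set, which allows a share of cells with a UMI of up to 0.464% and sets no limit on cells that express the gene, and in 72 of 694 of the high set (10.4%). B cells, taken here as the reference for free RNA, had it in 0 of 1982 and 42 of 5080 cells (0.827%). CD8 T cells had it in 10 of 2731 and 36 of 1449 cells, and regulatory T cells in 0 of 49 and 26 of 70. The remaining T cells had it in 12 of 1977 and 326 of 3624. Cells that were neither T nor B cells had it in 69 of 8915 and 2335 of 19097. The difference between the sets was thus not confined to CD4 and regulatory T cells. Median depth was alike in members of the low and the high set, at 2772 and 2648.5 UMIs. Within App chronic colitis the 2 low groups held 0 CPM of Areg and the 2 high groups 285 and 440 CPM. Ifng, the cytokine that defines Th1 cells, was detected in 5.88% of low and 18.3% of high members, whereas Il2, a T cell growth factor, was detected in 10.1% and 6.34%.

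The share of conventional CD4 T cells varied widely between hashtag groups of the same library. WT control groups held 6.09%, 3.01%, 1.95% and 3.59% of cells as members (hashtags 4 to 7), and App control groups 6.17%, 1.34%, 3.33% and 2.59%. In App chronic colitis the shares were 6.93% and 9.15% in the low groups and 1.57% and 1.34% in the high groups, so the library held both the highest share of the series and shares near the lowest. As a share of T cells, those of App chronic colitis ran only from 10.7% to 16.1%, and the highest of the series was 21.6% in WT acute colitis hashtag 5. App acute colitis ran from 1.52% to 2.55%, and WT chronic colitis from 0.509% to 6.99%. The mean share was 3.66% ± 1.76 (SD, n = 4) in WT control and 3.36% ± 2.05 (SD, n = 4) in App control. It was 1.96% ± 0.53 (SD, n = 3) in App acute colitis, 4.75% ± 3.91 (SD, n = 4 hashtag groups, more than the stated animals) in App chronic colitis and 3.55% ± 1.69 (SD, n = 4) in App food allergy. The 3 treated WT means lay between 2.53% (food allergy) and 3.79% (acute colitis), with n = 3 hashtag groups each. Hashtag groups count equally in a mean, and WT acute colitis hashtag 6 held only 4 members in 108 cells (3.70%). No comparison of means with the matching control, nor of both controls, passed the two-sided exact permutation test, with p between 0.343 and 0.886 and an adjusted p of 0.886 for all 7. The smallest p that 4 against 4 groups allow is 0.0286. A share falls also when other cell types grow in number, so it is not a cell count.

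**Figure D2:**
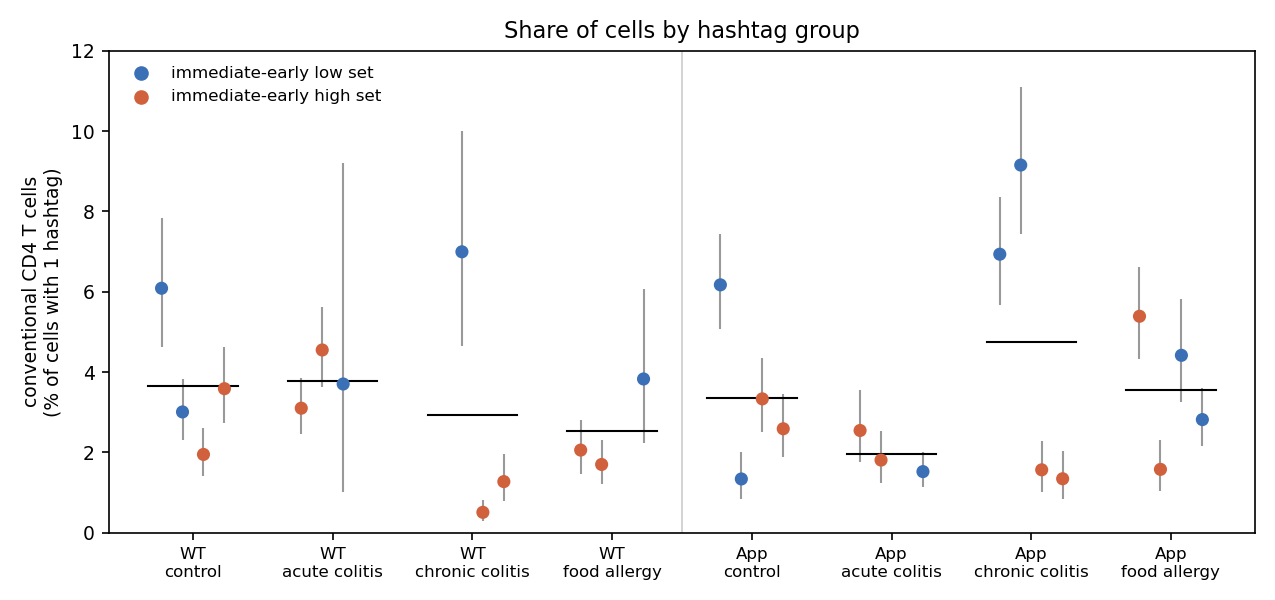
Conventional CD4 T cells as a percentage of cells with 1 hashtag, for the 28 hashtag groups with at least 100 cells, by condition (App stands for APPNL-G-F). Points are hashtag groups coloured by immediate-early set, vertical bars are exact 95% binomial intervals that cover counting error only, and black lines are condition means. The groups of App chronic colitis spread from 1.34% to 9.15%.

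Most members had an effector profile. The most abundant genes of the effector and memory list were Vim at 1360 CPM, S100a10 at 1311, S100a6 at 1257, Crip1 at 1244 and the galectin Lgals1 at 1146 CPM. Of the retention genes, Rgs1, which dampens chemokine signals, stood at 448 CPM and Cxcr6 was found in 670 members (50.0%). The Th1 chemokine receptor Cxcr3 was found in 754 (56.3%). Il7r, the receptor for the survival cytokine of resting T cells, had a median of 800 CPM over hashtag groups. Of recirculation genes, Klf2 stood at 346 CPM and Tcf7, a factor of naive and memory cells, at 286 CPM, but the homing gene Ccr7 was found in only 142 members, of which 31 also had Cxcr6. Itgae, the integrin of epithelial resident T cells, was found in 2.01%. After thinning to 1000 UMIs, 956 of 1320 members (72.4%) carried at least 2 of 10 effector genes and at most 1 of 7 naive genes, and 60 (4.55%) met the reverse definition. The 2 classes are ranges of a score, and 43 of the 60 naive-type members stood at exactly 2 naive genes. CD8 T cells of these brains had 3.61% naive-type cells by the same definition, regulatory T cells 4.20% and B cells, which share the naive genes, 26.3%.

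Naive-type shares in App food allergy lay below those in App control, although the difference did not pass after adjustment. The shares in App control groups were 6.93%, 4.55%, 7.69% and 9.09% (hashtags 4 to 7), and in App food allergy 1.18%, 3.85%, 2.13% and 1.72%, so the groups did not overlap. The means were 7.06% ± 1.90 (SD, n = 4) and 2.22% ± 1.15 (SD, n = 4), with p = 0.0286 by the two-sided exact permutation test, the smallest the design allows, and an adjusted p of 0.2 over 7 comparisons. The App food allergy shares rest on 1 naive-type cell in each group. App chronic colitis had 2.47% ± 1.94 (SD, n = 4), with an exact permutation p of 0.0571 and an adjusted p of 0.2. The hashtag groups outnumber the animals stated for App chronic colitis, so this p may be too small. App acute colitis had 3.13%, 6.67% and 8.51%, which overlapped App control (exact permutation p = 0.571). WT acute colitis had 10.4% and 8.54% in its 2 groups, while WT control ran from 0% to 9.30%, and WT chronic colitis had 0 of 65 members of that type, which allows a share of up to 4.62% for counting error only.

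Helper cytokine transcripts were sparse. Tnf was detected in 145 members (10.8%), Ifng in 165 (12.3%) and Il2 in 109 (8.13%). Th2 and Th17 cytokines were rarer, with Il4 in 28 members (2.09%), Il17a in 9, Il17f in 5, Il13 in 2 and Il5 in 1. Il3 was detected in 0 of 1340, which allows a share of cells with a UMI of up to 0.224%. The share of B cells with a UMI of Il4 was 0.297% and of Il10, a cytokine that B cells can make, 0.623%, against 1.34% of members (18 cells). Median depth was 2712.5 UMIs in members and 2463 in B cells. Among factors that direct helper fates, Gata3 (Th2) was found in 296 members, Tbx21 (Th1) in 228 and Bcl6 (follicular helper) in 49. Of the 9 cells with Il17a, 1 also had Ifng. Bcl6 was found in a higher share of B cells (9.94%) than of members (3.66%).

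Clustering of the 1236 members under the limits for MHC class II, macrophage, neutrophil and B cell UMIs gave 9 groups, which are described by the genes that lead them and carry no test. The limits did not cover other lineages. The largest, 363 cells, was led by Ctsw, Itga1, Cxcr6 and Zfp683, genes of tissue-resident lymphocytes, and 22.9% of its cells came from the high set. A cluster of 332 cells was led by Ccr7, Klf2 and S1pr1, recirculation genes. In 154 cells the mast cell protease Cma1, found in 1.30% of them, led, followed by Areg, Il1rl1, the receptor for IL-33 (22.1% of them), Calca and Gata3 (49.4%), with the mast cell protease Mcpt4 next. In 111 cells Tmem176b and Il17a were among the leading genes. In 87 cells Ccl5, Gzmk, Trbv16, Trav7-5 and Eomes led, and 40.2% of those came from App food allergy hashtag 4. Smaller clusters of 66, 51, 44 and 28 cells were led by Ccl1, Penk and Ccr8, by the interferon-induced Ifit1 and Isg15, by Gzma, Fcer1g, Tyrobp and Klrb1c, with the natural killer gene Ncr1 (15.9% of cells) among the leading genes, and by the mitotic Ube2c and Birc5, with the haemoglobin gene Hbb-bs (3.57% of cells) between them. The 28 cells of the last had a median of 8168.5 UMIs.

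Against CD8 T cells of the same hashtag groups, conventional CD4 T cells were higher for most, but not all, of the checkpoint and costimulation genes called. Of 11 tested genes of that list, Cd28, Ctla4, Icos, Tnfrsf4, Tnfrsf18 and Cd40lg were higher and Tox, Lag3 and the costimulatory receptor Cd27 were lower, with a median log2 fold change of 0.88 against 0.01 over all genes tested. The fit paired both types within hashtag groups, and 17.8% of 4629 genes tested were called at an adjusted p under 0.05 (edgeR's quasi-likelihood test with Benjamini-Hochberg adjustment), 9.29% higher and 8.47% lower in CD4 T cells. When all cells were thinned to 1000 UMIs, 284 genes were called in place of 822.

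Tnfrsf4 encodes OX40, a costimulatory receptor of activated helper cells, and lies at chr4:156013843-156016612 on the plus strand (GRCm38). It ran from 59.1 to 446 CPM over hashtag groups in CD4 T cells (median 200) and from 0 to 30.6 CPM in CD8 T cells (median 4.41), so the types did not overlap. The log2 fold change was 4.77 ± 0.18 (SE; edgeR adjusted p = 1.98e-20). Cd40lg, the ligand with which helper cells activate B cells (chrX:57212143-57224042, plus strand), ran from 74.2 to 324 CPM against 0 to 19.9 CPM, again without overlap. Its log2 fold change was 4.25 ± 0.18 (SE; edgeR adjusted p = 1.52e-19). Icos, a costimulator of helper cells, had medians of 167 and 41.9 CPM, with ranges of 65.7 to 376 and 22.3 to 82.2 CPM that overlapped slightly. Izumo1r, the folate receptor 4 of CD4 T cells, had medians of 123 and 15.5 CPM, and Maf, a factor of IL-4 and IL-21 expression, 116 and 30.3 CPM. Cd5 and Cd28 were higher too, by 1.51 ± 0.10 and 0.88 ± 0.05 (log2 ± SE; edgeR adjusted p = 6.20e-14 and 1.88e-15). Il7r was higher by 0.95 ± 0.12 (log2 ± SE; edgeR adjusted p = 8.88e-08).

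Cytotoxic genes were lower in CD4 T cells. Of 13 tested genes of the Th1 and cytotoxic list, 11 were lower and 1, Cxcr3, was higher, with a median log2 fold change of -1.62 against 0.01 over all genes tested. Nkg7, a granule membrane gene, ran from 187 to 1238 CPM in CD4 T cells and from 1321 to 3244 CPM in CD8 T cells, without overlap, and was lower by a log2 value of -2.21 ± 0.12 (SE; edgeR adjusted p = 1.45e-16). Ccl5, a chemokine of effector and memory T cells, had medians of 1076 and 9370 CPM, but the highest CD4 group, at 9363 CPM, lay inside the CD8 range. Prf1, which encodes perforin, had medians of 7.19 and 68.4 CPM. Cd160, a receptor of cytotoxic lymphocytes, had 0 to 38.9 CPM against 63.9 to 152 CPM. Ifng gave a log2 fold change of -0.10 with an edgeR adjusted p of 0.746, and Ltb one of -0.05 with 0.695.

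The other lists were split or small. All 7 tested genes of the regulatory T cell list and all 4 of the Th17 list were higher than in CD8 T cells, with Rora and Tmem176b among the latter. Of 12 naive genes, 5 were higher, among them Tcf7, Klf2 and S1pr1. Of 15 effector genes, 8 were higher and S100a6 and Ly6c2 lower, and of 10 retention genes, 4 were higher and Runx3, Cxcr6 and Itga1 lower. None of 12 cell cycle genes was called. Of 9 tested immediate-early genes 5 were higher, with Junb at 0.55 ± 0.10 (log2 ± SE; edgeR adjusted p = 3.83e-05).

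**Figure D3:**
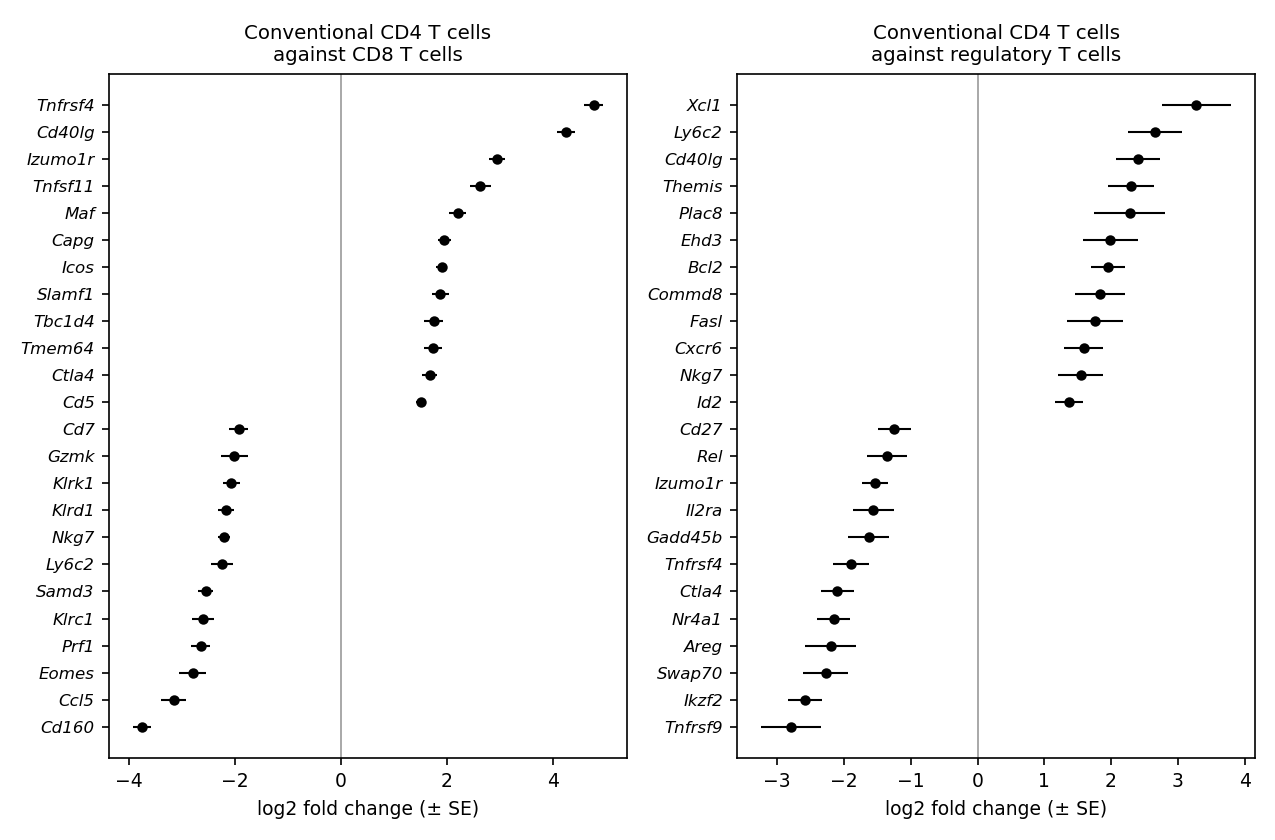
Log2 fold changes with standard errors for up to 12 genes with the lowest and 12 with the highest values among the called genes named by the rule, in conventional CD4 T cells against CD8 T cells (left) and against regulatory T cells (right). Positive values are higher in conventional CD4 T cells, as for Tnfrsf4 at 4.77 on the left, and neutrophil genes and receptor segments are left out.

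Against regulatory T cells, Cd40lg was again higher, and most tested genes of the regulatory list were lower. The 119 regulatory T cells were too few for hashtag groups, so sums over the 8 libraries were compared with the library as a block. Each library held only 7 to 22 of them, so their lowest and highest values rest on few cells. Of 2946 genes tested 2.72% were called, with 1.19% higher and 1.53% lower in conventional CD4 T cells, and 28 in place of 80 genes were called when cells were thinned to 1000 UMIs. The number of calls cannot be set beside that against CD8 T cells, since the fits differ in units and cells. Cd40lg did not overlap, with 108 to 258 CPM against 0 to 73.7 CPM, a log2 fold change of 2.40 ± 0.33 (SE; edgeR adjusted p = 3.68e-04). Xcl1, a chemokine for cross-presenting dendritic cells, was higher by 3.28 ± 0.52 (log2 ± SE; edgeR adjusted p = 0.00101), and Cxcr6 by 1.59 ± 0.29 (log2 ± SE; edgeR adjusted p = 0.00476). Tcf7 was higher by 1.23 ± 0.26 (log2 ± SE; edgeR adjusted p = 0.0138). Of 9 tested genes of the regulatory list 8 were lower. Ikzf2, which encodes Helios, ran from 20.8 to 103 CPM against 232 to 600 CPM, and the inhibitory receptor Ctla4 from 50.0 to 143 CPM against 258 to 943 CPM. Tnfrsf4, which stood above CD8 T cells, was lower than in regulatory T cells by a log2 value of -1.90 ± 0.27 (SE; edgeR adjusted p = 4.60e-04), at 88.0 to 276 CPM against 475 to 1916 CPM. S100a8 and S100a9, the neutrophil calprotectin genes, were also called higher, at 38.2 to 14910 CPM for S100a8 over the libraries of conventional CD4 T cells. Their part in other differences was not tested.

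The WT control library stood apart from the others. Over all 122 tested genes with a longest transcript under 600 bases, chosen by length alone, the summed level was 44090 CPM in WT control members and 67766 to 103724 CPM in the other 7 libraries. WT control was the lowest library for 61 of the 122 genes, so the shift did not hold for each of them. The same sum was low in WT control for CD8 T cells (54942 against 88932 to 101210 CPM) and for B cells (34831 against 57762 to 80206 CPM). Rps29, a ribosomal protein gene with a longest transcript of 390 bases (chr12:69157722-69159186, minus strand), ran from 701 to 951 CPM in its 4 hashtag groups, against 4363 to 5456 CPM in App control. In App control against WT control, 24.6% of genes with transcripts under 600 bases were called, 7.06% of those of at least 600 and under 1000 bases and 0.849% of the rest. This library is the control of all 3 WT comparisons, of App control against WT control and of the tests of differences between genotypes, so these do not support each other.

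Against WT control, 1.53% of 4370 genes were called in the acute colitis library (64 higher and 3 lower), 1.65% in that of chronic colitis (69 and 3) and 1.3% in that of food allergy (53 and 4). Of the tested genes under 600 bases, 17.2%, 21.3% and 17.2% were called. Of the tested genes of at least 1000 bases, 0.669%, 0.592% and 0.489% were called. The longest transcript of each gene described against WT control is therefore given below, and so is the value without the 104 members that carried RNA of other lineages where the call was lost.

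The effector gene Crip1 (chr12:113146316-113153879, plus strand), which encodes a small zinc-binding protein and has a longest transcript of 516 bases, was lower in WT control than in each treated WT library. It stood at 586, 682, 785 and 540 CPM in WT control, at 1398 and 1372 in acute colitis, at 1527 and 2065 in chronic colitis and at 1555 and 1631 in food allergy. The log2 fold changes were 1.03 ± 0.27, 1.55 ± 0.26 and 1.26 ± 0.27 (SE), with edgeR adjusted p of 0.0492, 5.05e-04 and 0.0116. App control had 1018 to 1565 CPM and was higher than WT control as well, by 0.99 ± 0.22 (log2 ± SE; edgeR adjusted p = 0.0113).

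Ccr2, the chemokine receptor for recruitment to inflamed tissue (chr9:124101950-124113557, plus strand), has a longest transcript of 5728 bases. It stood at 37.8, 86.4, 80.4 and 86.6 CPM in WT control, at 217 and 383 CPM in chronic colitis and at 204 and 370 CPM in food allergy. The log2 fold change was 2.10 ± 0.51 in chronic colitis and 1.99 ± 0.48 in food allergy (SE; edgeR adjusted p = 0.0266 and 0.0335). Without the members that carried RNA of other lineages it was 1.57 in chronic colitis with an edgeR adjusted p of 0.348, and 2.09 in food allergy with 0.0202. WT acute colitis had 122 and 112 CPM (log2 0.64 ± 0.50 SE; edgeR adjusted p = 0.799). In chronic colitis the effector genes S100a4 and S100a10, whose longest transcripts of 498 and 685 bases are short, were also called, at 1.21 ± 0.29 and 0.80 ± 0.19 (log2 ± SE; edgeR adjusted p = 0.0245 for both), and neither was called without those members (adjusted p = 0.315 and 0.226).

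Gzmb, which encodes granzyme B (chr14:56258838-56262260, minus strand) and has a longest transcript of 1436 bases, was lower in WT acute colitis and food allergy than in WT control. WT control had 18.9, 14.4, 414 and 187 CPM, so the 2 high-set groups carried most of it. WT acute colitis had 14.2 and 7.50 CPM, a log2 fold change of -4.19 ± 0.85 (SE; edgeR adjusted p = 0.00723), and food allergy 5.82 and 15.9 CPM, a change of -4.03 ± 0.95 (SE; edgeR adjusted p = 0.0284). Both calls were lost without the term for the set (adjusted p = 0.118 and 0.224). Only 3 or 4 genes were lower in each WT comparison, and in acute colitis the others were Elane and Mpo, granule genes of neutrophil precursors. WT control hashtag 6 held 2955 CPM of Elane and the other 3 WT control groups 0 to 6.30 CPM.

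A pair of receptors was lower in WT food allergy. Pdcd1, the inhibitory receptor PD-1, with a longest transcript of 1930 bases, stood at 132, 240, 130 and 540 CPM in WT control and at 69.9 and 15.9 CPM in food allergy (log2 -2.71 ± 0.67 SE; edgeR adjusted p = 0.0406), and the call was lost without the set term (adjusted p = 0.0634). Il2rb, the beta chain of the IL-2 and IL-15 receptor, with one of 4194 bases, stood at 359 to 624 CPM in WT control. It was lower in food allergy, at 239 and 95.5 CPM (log2 -1.35 ± 0.31 SE; edgeR adjusted p = 0.0249), and in chronic colitis, at 217 and 174 CPM (log2 -1.30 ± 0.33 SE; edgeR adjusted p = 0.0381). Without the members that carried RNA of other lineages its adjusted p was 0.145 and 0.0664. Genes of other cells also appeared among the calls. The platelet factor Pf4, which brain border macrophages express (588 bases), had 119 and 157 CPM in WT acute colitis and 0 in all WT control groups, and the fibroblast gene Dcn (1758 bases) had 285 and 155 CPM in WT food allergy and 0 in all WT control groups. Their part in the other differences was not tested.

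**Figure D4:**
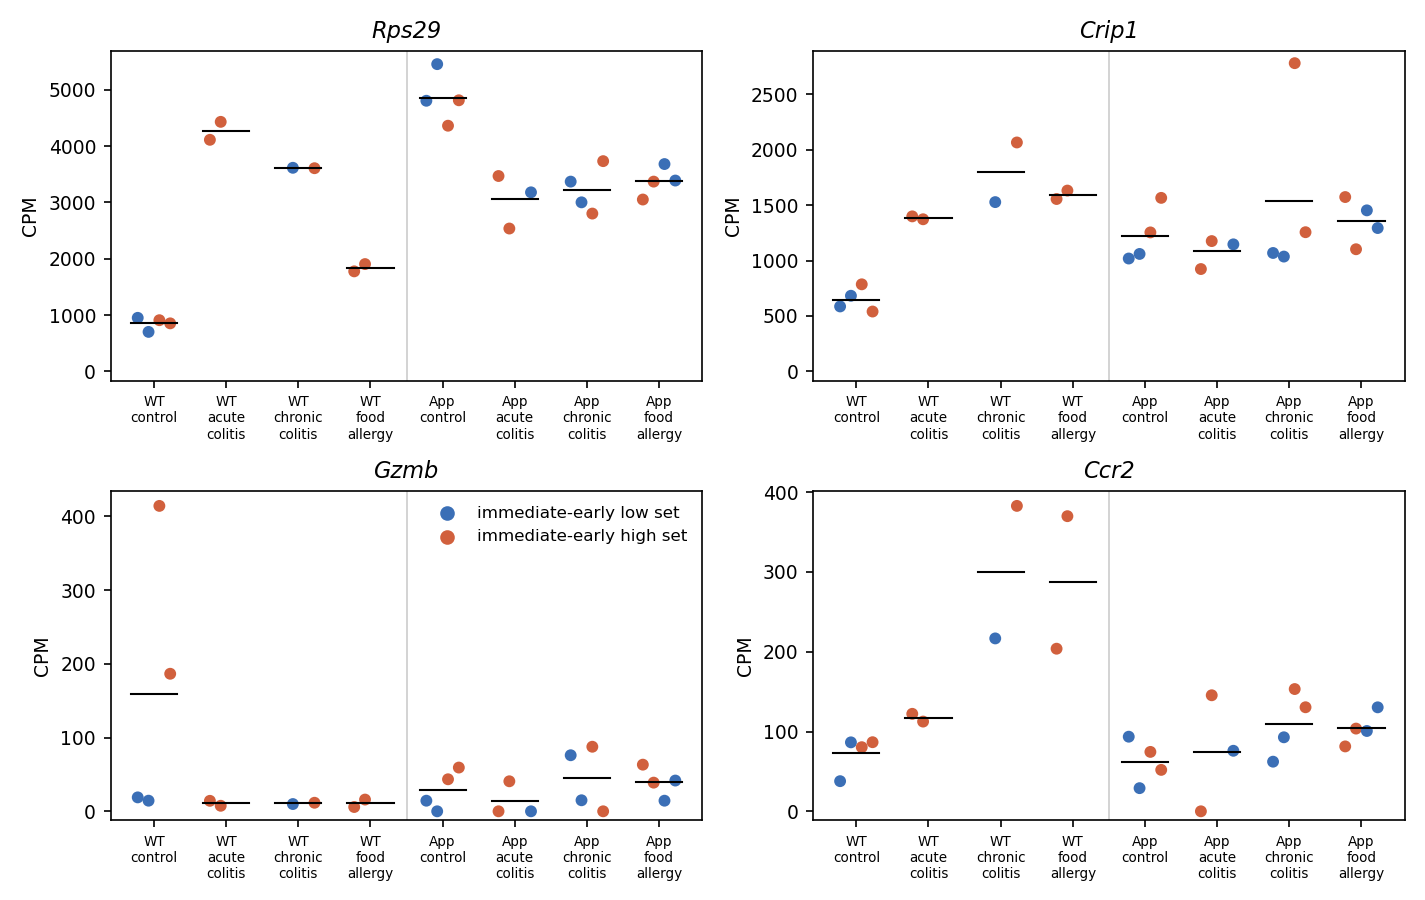
CPM of Rps29, Crip1, Gzmb and Ccr2 in conventional CD4 T cells of the 25 hashtag groups with at least 20 members, by condition (App stands for APPNL-G-F). Points are hashtag groups coloured by immediate-early set and black lines are condition means. Rps29 and Crip1 are lowest in the 4 WT control groups, Gzmb is highest in 2 of them, and Ccr2 is highest in WT chronic colitis and food allergy.

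In App mice no gene passed the test. Acute colitis, chronic colitis and food allergy each had 0% of 4370 genes called by edgeR's quasi-likelihood test. At an unadjusted p under 0.05 there were 351, 174 and 242 genes. Where no gene differs, a fraction of about 0.05 of the 4370 genes falls under that limit by chance. The count of chronic colitis was below that level, that of food allergy near it and that of acute colitis above it. DESeq2 called 8, 10 and 2 genes. Without a filter on low counts edgeR called 136, 40 and 61 genes, so the count of 0 depends on that filter. The 3 comparisons share the App control groups. In simulated data of the food allergy comparison the test recovered 24 of 100 genes changed 2-fold and 83 of 100 changed 4-fold. That simulation tested 4013 genes and held no difference between the immediate-early sets. Each gene had the spread typical of its level and no spread of its own, so recovery in the real data may be lower. The other comparisons were not simulated. Tsc22d3, the glucocorticoid-induced leucine zipper, stood at 306, 247, 329 and 378 CPM in App control and at 435, 436 and 744 CPM in acute colitis, without overlap (log2 0.82 ± 0.21 SE; edgeR adjusted p = 0.278). Cd40lg stood at 174 to 295 CPM in App control and at 98.9 to 127 CPM in acute colitis (log2 -1.11; edgeR adjusted p = 0.449). Areg, read in the 2 high-set groups of App chronic colitis alone, had an edgeR adjusted p of 0.132 there. In food allergy Ccr7 stood at 15.1, 25.9, 36.0 and 20.9 CPM against 57.6, 43.5, 137 and 134 CPM in App control, without overlap (log2 -2.02 ± 0.69 SE; edgeR adjusted p = 0.851). Of the 12 tested naive genes, 11 had a negative and 1 a positive value there, with a median of -0.46 against 0.00 over all genes. Nkg7 stood at 1238, 505, 489 and 579 CPM against 471, 392, 403 and 230 CPM in App control.

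Between the controls, 2.04% of 4370 genes were called, 85 higher and 4 lower in App. Apart from the short genes, Actn1, an actin cross-linker with a transcript of 3734 bases, was higher, at 39.6, 160, 62.1 and 66.8 CPM against 25.2, 4.80, 18.5 and 6.66 CPM (log2 2.41 ± 0.59 SE; edgeR adjusted p = 0.0244). The 4 lower genes were Arsb, Eno1, Tmed9 and Hnrnpa0. Eno1, the glycolytic enzyme enolase (2027 bases), stood at 133 to 199 CPM in App control and 286 to 427 CPM in WT control, without overlap (log2 -0.98 ± 0.25 SE; edgeR adjusted p = 0.0363). Arsb, a lysosomal sulfatase (4038 bases), stood at 10.8 to 37.2 CPM against 56.7 to 91.2 CPM (log2 -1.68 ± 0.39 SE; edgeR adjusted p = 0.0165).

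The response to a treatment differed between genotypes for 0.984% of genes under acute colitis, 1.1% under chronic colitis and 0.572% under food allergy, by interaction terms of the same edgeR fit. These terms also contain the WT control library. All 43 called genes of acute colitis, 47 of 48 of chronic colitis and 24 of 25 of food allergy were lower in the App response, and 17 of 41, 17 of 46 and 11 of 25 with a known length were under 600 bases. In acute colitis Rps29 had a difference of -3.05 on the log2 scale. The exceptions, which were higher, were Rbm38, an RNA-binding target of p53, in chronic colitis (1.90 ± 0.45 SE; edgeR adjusted p = 0.0438) and B4galnt1, a ganglioside synthase, in food allergy (1.28 ± 0.29 SE; edgeR adjusted p = 0.0376). Rbm38 stood at 39.4 and 34.8 CPM in WT chronic colitis, 92.7 to 149 CPM in WT control and 120 to 131 CPM in App chronic colitis. Neither was called without the members that carried RNA of other lineages.

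A variable segment of the T cell receptor stood out in 2 hashtag groups. Cells of a T cell clone share their alpha and beta chains, each built with a V segment (Trav and Trbv). Several Trav segments were detected in 200 members and several Trbv segments in 257. Such cells are left out where exactly 1 Trav and 1 Trbv segment is required. Trav7-5 was detected in 80 of 1340 members (5.97%). It was detected in 30 of 85 members of App food allergy hashtag 4 (35.3%) and in 15 of 100 members of App chronic colitis hashtag 4 (15%). The other groups with at least 20 members lay between 0% and 7.69%. In App food allergy hashtag 4, 27 of the 30 cells also had Trbv13-2, against 9 of the other 55 members, while in App chronic colitis hashtag 4 it was 9 of 15 against 15 of the other 85. In the former group the pair made up 22 of 41 members with exactly 1 Trav and 1 Trbv segment. In App chronic colitis hashtag 4 it made up 9 of 42. CD8 T cells had leading pairs too, with Trav12-1 and Trbv19 in 10 of 34 such cells (29.4%) of WT food allergy hashtag 5 and Trav5-4 and Trbv13-2 in 22 of 97 (22.7%) of App chronic colitis hashtag 5. Of 4180 CD8 T cells, 16 carried the pair. Both hashtags are numbered 4, but the libraries differ.

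Many of the same cells carried Gzmk, a granzyme of memory-like effector cells. It was detected in 26 of the 30 members with Trav7-5 and in 21 of the other 55 of App food allergy hashtag 4, and in 15 of 15 and 18 of 85 in App chronic colitis hashtag 4. Tigit, an inhibitory receptor, was detected in 25 of 30 and 20 of 55, and in 14 of 15 and 11 of 85. Ccl5 was detected in 28 of 30 and 33 of 55, and in 14 of 15 and 37 of 85. Cxcr3 hardly differed in either group, at 17 of 30 and 29 of 55, and 10 of 15 and 54 of 85, and Cxcr6 was found in 20 of 30 and 35 of 55, and 11 of 15 and 38 of 85. Gzmk was also frequent without Trav7-5. In WT control hashtag 7 it was detected in 20 of 56 members (35.7%), with 0 of Trav7-5, 15 of Trbv16 and 6 of Eomes. These hashtag groups were named after their values had been seen, so no test is given. Without full receptor sequences the number of clones was not analysed here.

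**Figure D5:**
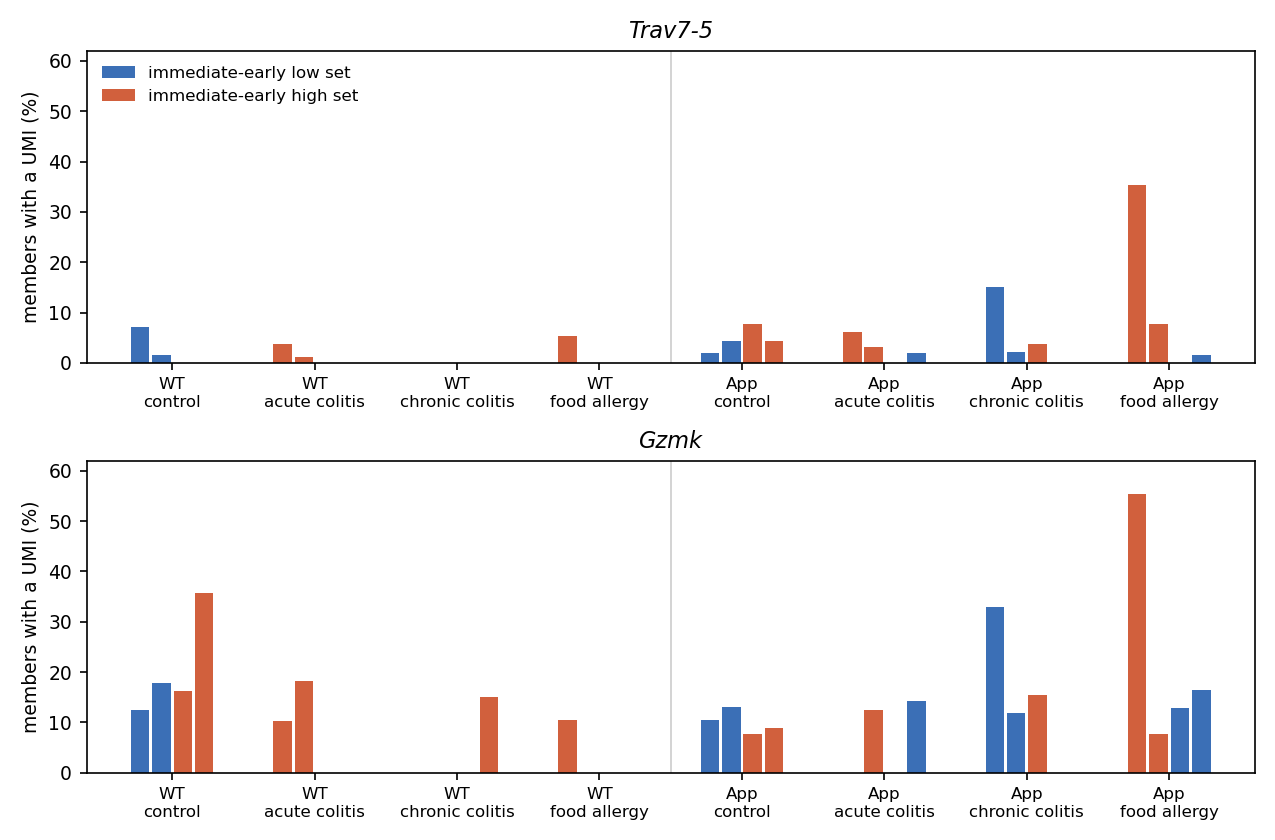
Percentage of members with a UMI of Trav7-5 (top) and Gzmk (bottom) in the 25 hashtag groups with at least 20 members, by condition (App stands for APPNL-G-F), coloured by immediate-early set. App food allergy hashtag 4 has the highest bar in both panels, at 35.3% and 55.3%, and App chronic colitis hashtag 4 follows for Trav7-5 at 15%.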

How the data were processed

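Gene and hashtag UMI counts per barcode were deposited by the authors as unfiltered 10x matrices. The methods name Cell Ranger 6.1.2 and the mm10 genome. Barcodes with at least 500 gene UMIs, 200 genes and at most 5% mitochondrial UMIs were kept, with the top hashtag at 50 or more counts and 3 times the second. Cells with several hashtags were left out as doublets and no doublet caller was run. Counts were summed per hashtag group (25 groups with at least 20 members, 4370 genes, 16 residual degrees of freedom) and tested in edgeR 4.0.16 (R 4.3.3) with TMM scaling, quasi-likelihood tests, a term for the immediate-early set and Benjamini-Hochberg adjustment over all genes at 0.05. Shares were compared by exact two-sided permutation tests (scipy 1.17.1). DESeq2 1.42.0 and other settings were alternatives. No hashtag group held 20 regulatory T cells, so the planned comparison with them used library sums. The test script was checked on simulated counts, where 5 of 112 calls were false.

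Members, lists and tests were chosen with earlier results of these data known. The text names the marker and gate genes, up to 10 called genes in each direction by size with at least 20 CPM, called list members (the 6 highest where over 6 were called), up to 8 highest genes of each descriptive list and the 15 highest genes. Clusters (scanpy 1.11.5) and receptor segments were described after their values were seen. Intervals cover counting error only. Gene positions and transcript lengths came from GENCODE vM21 (GRCm38, the build of the files).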

Additional observations from a re-analysis of the deposited data

Results flagged for a closer look

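Among groups of 4 hashtag groups, 4 of 32 tests found a group far from the other 3 by Dixon's ratio, where chance gives about 1 in 20. In WT control hashtag 6, 18.6% of members carried RNA of other lineages, against 1.79% to 3.23% in the other 3 groups. The summed level of the Th1 and cytotoxic list was 11533 CPM in WT control hashtag 7, against 2821 to 3573 CPM in the other 3. The same sum was 13132 CPM in App food allergy hashtag 4, the group with the Trav7-5 cells, against 2783 to 3305 CPM in the other 3. The summed level of the effector and memory list was 18336 CPM in App chronic colitis hashtag 6, against 8290 to 9249 CPM in the other 3.

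The response to treatment differed between genotypes by an interaction test for 43 genes under acute colitis, 48 under chronic colitis and 25 under food allergy. All 3 tests contain the WT control library, which was low in short genes.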

How the results depend on the processing

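The number of genes called was within 1.5 times the main count with DESeq2's size factors and without the immediate-early term in all results tried. Of the named calls, 10 were lost without that term and 86 were kept. With no filter on low counts it was 149 in WT acute colitis, 178 in WT food allergy, 136, 40 and 61 in App acute colitis, chronic colitis and food allergy, 165 between the controls, 134, 83 and 78 in the tests of genotype differences (in the same order of treatments), 1343 against CD8 T cells and 353 against regulatory T cells. DESeq2 called 8, 10 and 2 genes in the App comparisons and 52 in the food allergy genotype test. With cells thinned to 1000 UMIs, 284 genes were called against CD8 T cells and 28 against regulatory T cells. Without members that carry RNA of other lineages, an alternative chosen after seeing the data, 40 genes were called in WT chronic colitis, 37 in WT food allergy and 3 in App chronic colitis, 23 named calls were lost, Mpo turned to 1.14 in WT acute colitis and Glul to -0.27 in WT food allergy (log2). The cause was not tested.

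With each hashtag group left out in turn, calls ranged from 33 to 61 in WT acute colitis (33 without its hashtag 5, 40 without its hashtag 4), 40 to 66 in WT chronic colitis (40 without its hashtag 5, 41 without its hashtag 7) and 24 to 65 in WT food allergy (24 without its hashtag 5, 32 without WT control hashtag 7). The range was 0 to 1 in App acute colitis (1 without its hashtag 5 or 7), 0 to 3 in App chronic colitis (3 without its hashtag 7) and 0 in App food allergy. Calls between the controls ranged from 69 to 85, and those of the genotype tests from 32 to 45, 33 to 54 and 16 to 28 (16 without WT food allergy hashtag 5). A group left alone in its condition was assumed to vary like the others.

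The differences in the CD4 share, none of which passed its test, changed sign most. In percentage points, the App food allergy difference was -0.43 as a share of cells with at least 2 CD3 genes, and that of WT acute colitis -0.0105 with a looser hashtag rule, -0.29 with the gate applied after thinning and -0.16 without members that carry RNA of other lineages. Leaving out groups gave -0.0763 to 2.53 in App chronic colitis, -0.48 to 1.13 in App food allergy, -1.24 to 0.51 between the controls, -0.44 to 0.94 in WT acute colitis and -2.77 to 0.48 in WT chronic colitis. The naive-type difference of WT acute colitis was -0.95 with at least 1 naive and no effector gene, and that of App acute colitis ranged from -2.17 to 0.52. The App food allergy difference in naive-type share stayed between -5.69 and -4.17. A limit of 50 members a hashtag group gave no value for WT chronic colitis, WT food allergy, App acute colitis and the genotype tests. No paired analysis was possible because hashtag numbers do not link samples across libraries.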
